A study of Populus ussuriensis with 12 samples.

Results

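The 200 genes with the highest mean FPKM in root tips of wild-type poplar on ordinary medium were followed across genotypes and media. FPKM scales a gene's reads to its length and to the depth of the library. The deposited table lists 34699 gene identifiers, and the 200 were chosen by their mean over the 3 WT control libraries, so 0.576% of the identifiers are described. That choice used the WT control values, so they are given here as a description and contrasts that contain them carry no test.

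Root tips of 0.5 cm were taken from the poplar Populus ussuriensis, grown in vitro. The plants, aged 1 week at transfer, spent 7 days on agar medium with 6% PEG6000 or without it. PEG6000 is polyethylene glycol, an osmotic agent that lowers the water available to roots. OE PEG and OE control are plants of a PuC3H35 overexpression line with and without PEG, and WT PEG and WT control are wild type with and without PEG. Each group had 3 libraries of total RNA. The genotype labels of the 6 OE libraries run from PuC3H35 to PuC3H40 where the series title names a single line, and they were treated as 1 genotype. The labels give neither the promoter of the transgene nor how many plants went into a library. No label says that libraries of a group came from separate cultures, so the p-values measure the spread between these libraries, which may be technical.

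PuC3H35 belongs to the CCCH zinc finger proteins, a family whose plant members are known for binding RNA and for roles in stress responses. A root tip holds the cap, the meristem and the cells that begin to elongate, and a shortage of water is known to slow growth there and to change cell wall and transport functions. In growing plant tissue, transcripts for ribosomal proteins, translation factors, histones, the cytoskeleton and the cell wall are commonly among the most abundant. The table holds identifiers alone, without gene names, and no annotation was at hand, so no identifier is given a function, and neither the tissue nor the level of PuC3H35 itself was checked against marker genes.

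Depth was recovered from the steps between FPKM values. The recovered reads numbered 27122647 to 37101890 per library, and they accounted for at least 99.9878% of the library total that the FPKM formula implies. A member had a median of 11496.0 to 16936.0 reads in a library, against 457 to 689 for all tested genes, and the lowest member value in any library stood for 668 reads. The sources used here do not say whether a recovered read is 1 mate or a pair. They are also silent on how multiply matching reads were counted, so genes with a near-identical copy are uncertain.

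In WT control the members spanned 375 to 2952 FPKM, with a median of 527 against 8.60 for the 22640 genes tested. A gene was tested where its FPKM averaged at least 1 across all 12 libraries, and all 200 members passed that filter. Of the members, 3 stood above 2000 FPKM, 27 above 1000, and 84 at 500 or below. The order was steep only at its head, and it flattened toward the limit of 200. At that limit, Potri.018G057600 and Potri.015G003100 both averaged 375 FPKM and were the last included, and Potri.004G074900 at 374 FPKM and Potri.018G083500 at 373 FPKM were the first left out. Leaving out 1 WT control library in turn kept 198 to 199 of the 200.

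Potri.001G158400 had the highest mean in WT control. It had 2657, 2895 and 2672 FPKM in OE PEG, 2597, 2861 and 3025 FPKM in OE control, 3441, 3673 and 3604 FPKM in WT PEG, and 2991, 2789 and 3075 FPKM in WT control. WT PEG lay above the other 3 groups without overlap. In WT control its libraries overlapped those of the next gene, Potri.002G207093, so which of them is first lies inside the replicate spread.

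Potri.002G207093 was second in WT control and first in each of the other groups. It had 5065, 5156 and 4816 FPKM in OE PEG, 4841, 4935 and 5219 FPKM in OE control, 4034, 4037 and 4176 FPKM in WT PEG, and 2914, 2805 and 2799 FPKM in WT control. Both OE groups lay above both WT groups, and the WT groups did not overlap each other.

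The next places in WT control were held by Potri.009G085100 at 2144 ± 29.0 FPKM, Potri.001G181800 at 1747 ± 10.1, Potri.002G070101 at 1496 ± 53.4 and Potri.006G188500 at 1486 ± 61.9 FPKM (all errors on group means are SD with n = 3). Below them stood Potri.005G002250 at 1453 ± 25.8, Potri.010G013400 at 1429 ± 36.3, Potri.013G057500 at 1402 ± 48.2 and Potri.018G090100 at 1353 ± 42.6 FPKM. From Potri.002G070101 down to Potri.018G090100, the libraries of each gene overlapped those of the next, so the order within this run lies inside the replicate spread. Across the other groups Potri.002G070101 varied widely, at 1436 ± 41.0 FPKM in OE PEG, 1268 ± 143 in OE control and 3360 ± 164 in WT PEG. Potri.001G181800 varied least among the 10, with a highest group mean 1.25 times its lowest.

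**Figure D1:**
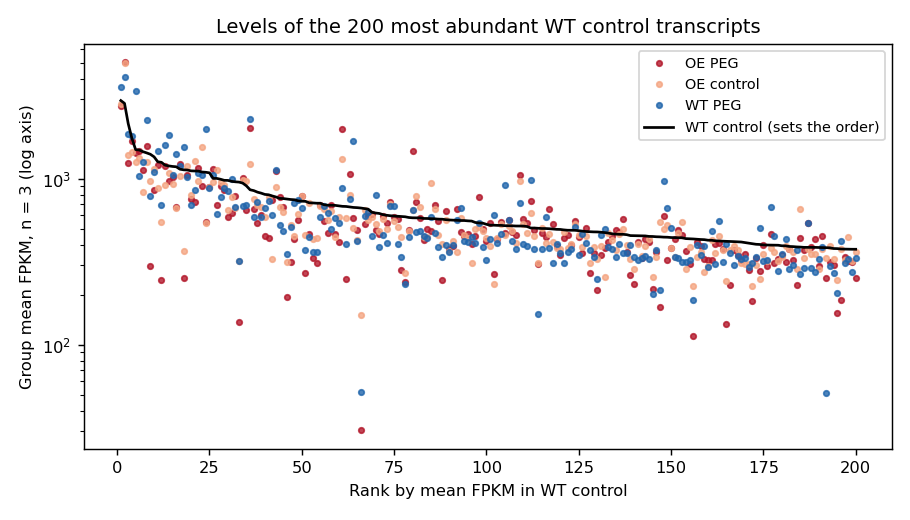
Mean FPKM of each of the 200 genes in each group (vertical axis, logarithmic, n = 3 libraries) against its rank in WT control (horizontal axis). The black line is WT control and sets the order; points mark the other groups. Potri.013G128800, at rank 66, reaches the lowest value, 30.5 FPKM in OE PEG.

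As a set, the members took the lowest mean share of the library in OE PEG and the highest in WT control. Their summed FPKM was 17.2 ± 0.251% of the library's sum in OE PEG, 18.8 ± 0.363% in OE control, 20.0 ± 0.195% in WT PEG and 21.3 ± 0.244% in WT control. The WT control share is high by the choice of the genes. By library the shares were 17.1%, 17.5% and 16.97% in OE PEG, 18.5%, 18.7% and 19.2% in OE control, 19.8%, 20.1% and 20.1% in WT PEG, and 21.6%, 21.1% and 21.3% in WT control. No groups overlapped. Between OE PEG and OE control the difference was -1.60 percentage points, and between OE PEG and WT PEG it was -2.83 points, each with p = 0.10 in a two-sided exact permutation test over 3 against 3 libraries, the smallest p that this design allows.

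In FPKM themselves the first of these differences was within the spread of the libraries. The members summed to 114039 ± 1881 FPKM in OE PEG and 115476 ± 2922 FPKM in OE control, and the groups overlapped (exact permutation p = 0.60). WT PEG stood at 122200 ± 1149 FPKM, above OE PEG without overlap (exact permutation p = 0.10). The FPKM of all genes also summed to more in OE PEG than elsewhere, at 661656 to 665551 per library, against 610202 to 623973 in the other 9 libraries. In recovered reads, where long genes weigh more, the shares were 11.8 ± 0.217% in OE PEG, 12.6 ± 0.293% in OE control, 14.4 ± 0.227% in WT PEG and 14.5 ± 0.177% in WT control. In bulk RNA, fewer cells of a type and less of a transcript per cell cannot be told apart.

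**Figure D2:**
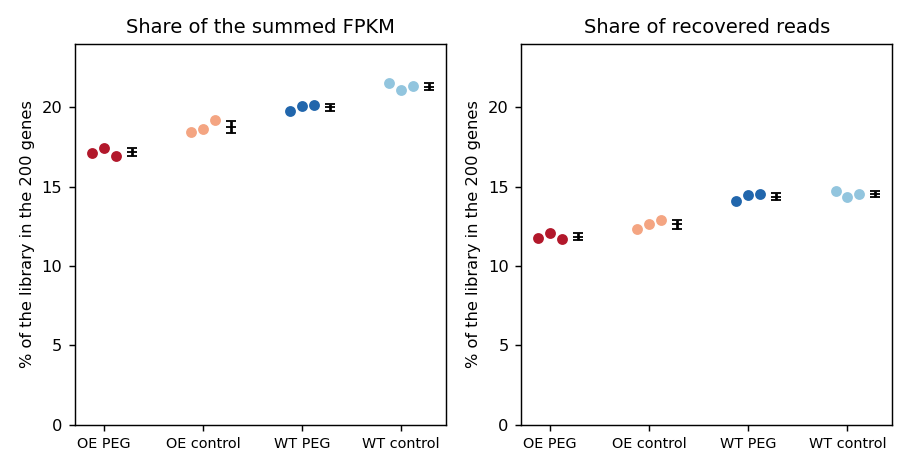
Percent of each library in the 200 genes, by summed FPKM (left) and by recovered reads (right). Coloured points are libraries, and the black mark beside them is the group mean with its SD (n = 3). OE PEG lies lowest in both panels, at 16.97% to 17.5% of FPKM.

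The list itself turned over between groups. Of the 200 members, 135 were also among the 200 highest genes of OE PEG, 160 among those of OE control and 153 among those of WT PEG. In all, 117 genes were on all 4 lists, and 308 were on at least 1. Most members that left a list stayed close to it. Ranks worse than 500 were reached by 11 members in OE PEG, 1 in OE control and 4 in WT PEG. The 65 genes that took their places in OE PEG had a median rank of 612 in WT control and a lowest rank of 17646. In OE control the 40 newcomers had a median WT control rank of 325.5, and in WT PEG the 47 newcomers had one of 438. Of the 10 highest genes of WT control, 6 were among the 10 highest of OE PEG, 7 of OE control and 6 of WT PEG. Spearman's rho of the members' levels with those of WT control was 0.641 in OE PEG, 0.759 in OE control and 0.755 in WT PEG, over the 200 genes, which are not independent replicates.

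Over the 3 groups that did not choose them, the members varied somewhat less than other genes. The highest of the means of OE PEG, OE control and WT PEG was a median of 1.36 times the lowest, against 1.43 times over 22635 tested genes. The ratio was at least 2 for 24 members (12%), against 20.6% of tested genes, and under 1.25 for 65 members (32.5%), against 26.3%. The tested genes were not matched to the members in level, and most were far lower with more spread between replicates. These shares are descriptions and were not tested.

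Replicates of the members lay close together. The median coefficient of variation was 2.86% in OE PEG, 3.94% in OE control, 2.41% in WT PEG and 2.43% in WT control, against 5.51%, 6.07%, 6.03% and 6.17% for all tested genes in the same groups. OE control was the loosest group, with 13 members above 10%, against 2 in OE PEG, 1 in WT PEG and 2 in WT control. Potri.007G062081, named for its spread after its values were seen, had the highest value, 61.0% in WT PEG, where its libraries stood at 1022, 414 and 364 FPKM.

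The members were short genes. Their recovered length had a median of 974.5 bp and ran from 144 to 4059 bp, against a median of 1825 bp over the tested genes. Lengths under 500 bp were found for 21.5% of the members and 4.06% of tested genes. When genes were ranked by recovered reads in WT control, 109 of the 200 remained among the 200 highest, and the 200 highest by reads had a median length of 1960.5 bp.

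The first test asked how the members responded to PEG in OE. Members were called in both directions, and 7 of the 9 called changes of at least 2-fold were decreases. Decreases of that size were called for 3.5% of the members and 2.35% of tested genes, and increases for 1% and 7.46%. OE control shares its medium with the WT control libraries that chose the members. The balance of directions may therefore be set in part by that choice, which was not tested. The largest decrease was that of Potri.013G128800, which had 29.8, 33.3 and 28.2 FPKM in OE PEG, against 140, 160 and 150 FPKM in OE control. Potri.013G057500, ninth in WT control, had 282, 321 and 288 FPKM in OE PEG, against 961, 948 and 982 FPKM in OE control. For both genes every PEG library lay far below every control library.

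Increases of at least 2-fold were called for 2 members. Potri.004G067900 had 1479, 1464 and 1473 FPKM in OE PEG, against 660, 648 and 640 FPKM in OE control, with a very small spread on either side. Potri.019G059500, a gene of 180 bp, had 824, 800 and 612 FPKM in OE PEG, against 360, 180 and 439 FPKM in OE control. Its groups did not overlap, but OE control had a coefficient of variation of 40.7%.

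On the log2 scale of FPKM + 1, Potri.013G128800 changed by -2.26 (SE 0.06, adjusted p = 1e-13 by limma) and Potri.013G057500 by -1.70 (SE 0.05, adjusted p = 5.3e-13). Potri.004G067900 changed by 1.18 (SE 0.03, adjusted p = 1.2e-13 by limma) and Potri.019G059500 by 1.27 (SE 0.23, adjusted p = 0.0002). The last was 0.89 without OE control replicate 2, which took it below 2-fold and left 1 member raised 2-fold.

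Of the 200 members, 66 were called higher and 80 lower in OE PEG than in OE control (33% and 40%), where 30.5% of the 22640 tested genes were called higher and 34.1% lower. A call is a Benjamini-Hochberg adjusted p under 0.05 over all tested genes. In total 73% of the members were called, against 64.6% of tested genes, and the median SE of a log2 fold change was 0.04 for members and 0.07 for tested genes. Changes of at least 2-fold were called for 2 members upward (1%) and 7 downward (3.5%), against 7.46% and 2.35% of tested genes. The median log2 fold change was 0.00081 for the members and -0.023 for all tested genes, and the middle of the members' distribution, from the 25th to the 75th percentile, ran from -0.24 to 0.16. The members' median depended on the scaling, at -0.11 with an equal FPKM sum in every library and -0.17 under quantile normalization, where the median of all tested genes was -0.12 and -0.096.

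How many of the small changes were increases depended on the scaling. Of the members called, 45.2% were higher. That share was 25.4% when all libraries were set to an equal FPKM sum, 50.0% under median-of-ratios size factors and 19.0% under quantile normalization. Over all tested genes called, the share was 47.3%, and it became 35.3%, 50.8% and 37.7% under the same 3 scalings. Among the 10 highest genes, 5 were called higher and 3 lower, and with an equal FPKM sum 3 were called higher and 5 lower. The decreases of Potri.013G128800 and Potri.013G057500 and the increases of Potri.004G067900 and Potri.019G059500 passed the test under each of these scalings.

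The second test compared OE with WT under PEG. Here 12 called differences of at least 2-fold were lower values in OE and 3 were higher. Lower values of that size were called for 6% of the members and 3.37% of tested genes, and higher ones for 1.5% and 5.95%. WT PEG shares its genotype with WT control, which chose the members. This balance too may be set in part by the choice, which was not tested. Potri.014G151101 had 243, 257 and 252 FPKM in OE PEG, against 1406, 1572 and 1644 FPKM in WT PEG. Potri.002G231250 had 535, 556 and 553 FPKM in OE PEG, against 1859, 2031 and 2046 FPKM in WT PEG. Both are among the longest members, with recovered lengths of 4049 and 4039 bp, and in both every OE library lay far below every WT library.

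In the other direction Potri.004G040600 had 243, 261 and 252 FPKM in OE PEG, against 50.9, 48.8 and 53.8 FPKM in WT PEG. Potri.011G025400 had 1958, 2086 and 1966 FPKM in OE PEG, against 866, 879 and 892 FPKM in WT PEG. Neither pair of groups overlapped, and Potri.011G025400 had rank 5 in OE PEG and rank 36 in WT PEG.

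In log2 terms Potri.014G151101 differed by -2.61 (SE 0.06, adjusted p = 3.3e-14 by limma) and Potri.002G231250 by -1.85 (SE 0.04, adjusted p = 8.9e-14). Potri.004G040600 differed by 2.28 (SE 0.04, adjusted p = 6.2e-15 by limma) and Potri.011G025400 by 1.19 (SE 0.03, adjusted p = 1.8e-13). All 4 passed the test under each alternative run.

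Of the members, 86 (43%) were called higher and 80 (40%) lower in OE PEG than in WT PEG, where 36.1% of tested genes were called higher and 32.2% lower. Called members made up 83% of the 200, against 68.3% of tested genes. At 2-fold, 3 members (1.5%) were higher and 12 (6%) lower, against 5.95% and 3.37% of tested genes. Of the 12, 11 had no overlap between the groups. The groups of Potri.007G062081 overlapped, at 371, 212 and 221 FPKM in OE PEG against 1022, 414 and 364 FPKM in WT PEG. The highest of the 3 was at 2.28 and the lowest of the 12 at -2.61 on the log2 scale. The median log2 fold change was 0.027 for the members and 0.028 for all tested genes. Among the 10 highest genes, 2 were called higher and 7 lower in OE.

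Rescaling to the same FPKM sum moved the median of all tested genes by -0.10 in this comparison, to -0.074, and put the members' median at -0.093. Higher calls were 51.8% of the members called, 38.2% after that rescaling, 48.7% under median-of-ratios size factors and 36.1% with quantile normalization. Of all tested genes called, 52.9% were higher, 40.5% after the rescaling, 51.3% under median-of-ratios size factors and 44.6% with quantile normalization. Both comparisons use the OE PEG libraries, so their calls are not independent of each other.

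**Figure D3:**
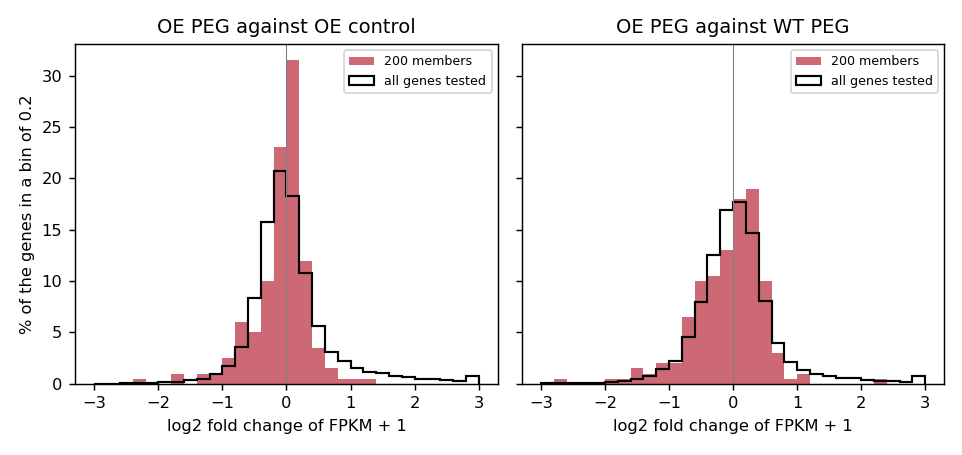
Distribution of log2 fold changes of FPKM + 1 for the 200 members (filled) and all 22640 tested genes (line), as a percent of each set per bin, with values beyond the axis put in the end bins. Both sets centre near 0 in OE PEG against OE control (left) and OE PEG against WT PEG (right), and the members lack most of the right-hand tail of the tested genes.

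**Figure D4:**
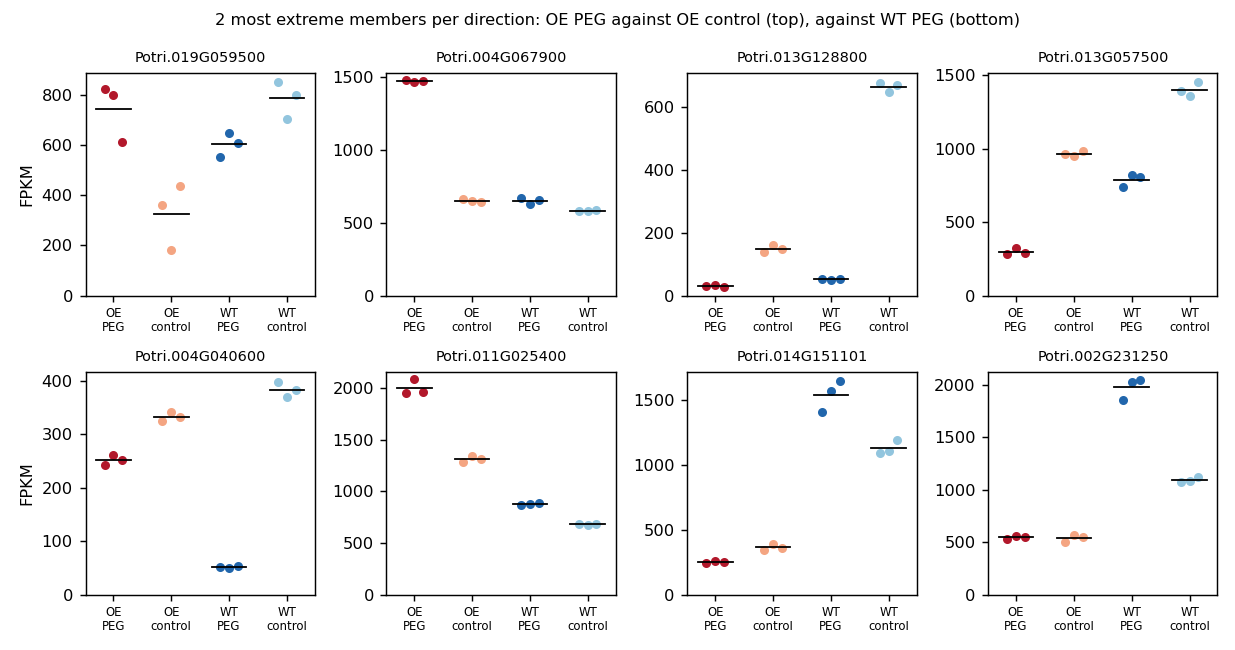
FPKM in every library (points) and group mean (line) of 8 members, the 2 with the largest increase and the 2 with the largest decrease in each tested comparison, those of OE PEG against OE control in the upper row and of OE PEG against WT PEG in the lower row. Axes start at 0. Potri.019G059500 has the widest spread between libraries, from 180 to 439 FPKM in OE control.

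Within the set, fold changes were related to gene length in both tested comparisons, which share the OE PEG libraries. In OE PEG against OE control the 100 members at or under the median length had a median log2 fold change of 0.067, and the 100 longer ones had -0.13. In OE PEG against WT PEG the medians were 0.19 and -0.28. Spearman's rho between recovered length and log2 fold change was -0.385 and -0.440 over the 200 members in the 2 comparisons, and -0.340 and -0.313 over all tested genes, of the same sign. In the contrasts that contain WT control the relation was not negative among the members: rho was 0.297 in WT PEG against WT control and 0.096 in OE control against WT control, beside 0.037 and -0.014 over all tested genes. Genes of a library share its depth and its RNA quality, and the part of either in this relation was not tested.

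**Figure D5:**
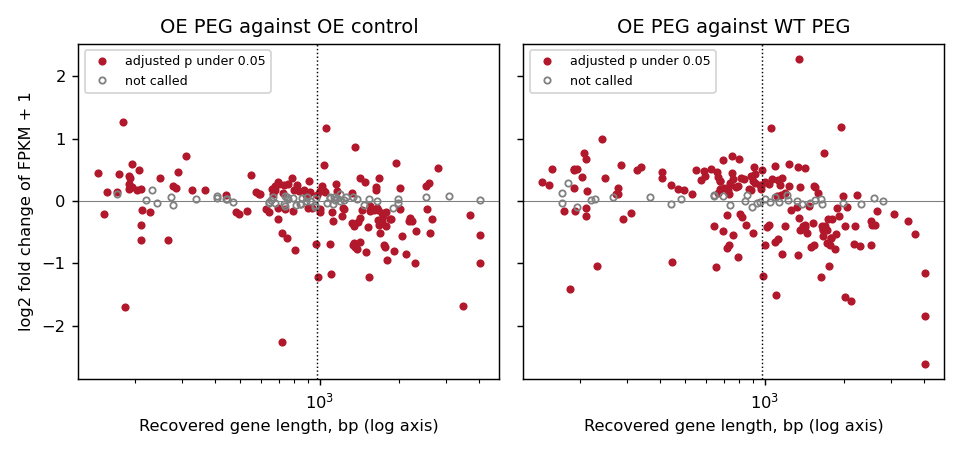
log2 fold change of FPKM + 1 against recovered length in bp (logarithmic axis) for the 200 members, filled where the adjusted p is under 0.05. The dotted line is the median length, 974.5 bp. Members to the right of it lie mostly below 0 in both panels, with medians of -0.13 (left) and -0.28 (right).

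The effect of PEG in WT is given as a description, because WT control chose the members. A gene picked for a high value in WT control tends to stand lower elsewhere, so the direction of the set is fixed in part by the choice. The lowest values relative to WT control were those of Potri.013G128800, at 52.6, 51.2 and 51.9 FPKM in WT PEG and 676, 650 and 670 FPKM in WT control. Potri.004G040600 had 50.9, 48.8 and 53.8 FPKM in WT PEG and 398, 369 and 383 FPKM in WT control. Its OE groups stood at 252 ± 9.37 FPKM with PEG and 333 ± 8.11 FPKM without it, and whether the PEG effect differed between genotypes was not tested.

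Some abundant transcripts were higher still with PEG in WT. Potri.014G149900 had 2268, 2276 and 2332 FPKM in WT PEG and 856, 860 and 854 FPKM in WT control. Potri.016G015500 had 1595, 1673 and 1772 FPKM in WT PEG and 660, 652 and 699 FPKM in WT control. At 2-fold with no overlap between groups, 4 members were higher (2%) and 9 lower (4.5%) in WT PEG, beside 7.08% and 1.17% of tested genes. At any size, 37 (18.5%) were higher and 147 (73.5%) lower without overlap, beside 31.5% and 36.2%. The median log2 fold change was -0.32 for the members and -0.039 for the tested genes.

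Between OE control and WT control the values are likewise a description. Potri.011G025400 had 1287, 1345 and 1316 FPKM in OE control and 682, 679 and 681 FPKM in WT control. Potri.010G060900 had 928, 995 and 964 FPKM in OE control and 523, 510 and 522 FPKM in WT control. Both ratios were below 2, at 1.93 and 1.86.

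Lower values in OE were larger in size. Potri.013G128800 had 140, 160 and 150 FPKM in OE control and 676, 650 and 670 FPKM in WT control. Potri.014G151101 had 344, 391 and 362 FPKM in OE control and 1090, 1110 and 1189 FPKM in WT control. At 2-fold with no overlap, 0 members were higher and 9 (4.5%) lower in OE control, beside 3.88% and 0.773% of tested genes. At any size, 29 (14.5%) were higher and 139 (69.5%) lower without overlap, beside 34.6% and 26.1%. The median log2 fold change was -0.22 for the members and 0.036 for tested genes.

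The PEG effects of both genotypes can be set side by side as a description. With no overlap between groups in either genotype, 61 members (30.5%) were lower with PEG in both and 17 (8.5%) higher in both, beside 18.1% and 17% of tested genes. A further 41 (20.5%) were higher with PEG in OE and lower in WT, beside 6.33% of tested genes, and 10 (5%) were lower in OE and higher in WT, beside 7.71%. The 41 had a median length of 676 bp and the 61 one of 1358 bp. For the genotype effect, 65 members (32.5%) were lower in OE on both media and 16 (8%) higher on both, beside 13.9% and 18% of tested genes. Another 53 (26.5%) were higher in OE under PEG and lower without it, beside 5.38% of tested genes, and 11 (5.5%) were lower in OE under PEG and higher without it, beside 9.13%. All of these counts contain the WT control libraries, so nothing is read from their distance to the tested genes.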

How the data were processed

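The authors deposited FPKM values to 4 decimals for 12 libraries, per the file headers. The submitters' processing notes list Bowtie2 2.2.3, HISAT2 2.1.0 and HTSeq 0.6.0, with no role; the sources used here do not give genome build, annotation or strand setting. Whole reads and lengths were recovered as the smallest whole length at which every library's value is a whole number of reads; 100.0% of values of the 31622 genes with reads were returned within 0.0001 FPKM. Where all reads of a gene share a factor with its length, the recovered length is a lower limit. Recovered reads speak to counting error only, and the SDs and SEs printed come from the spread between libraries.

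limma 3.58.1 in R 4.3.3 was fitted to log2(FPKM + 1) with a mean-variance trend, all 4 groups in 1 fit (8 residual degrees of freedom), for the 22640 genes averaging at least 1 FPKM; 12059 were left out. The fit was also run on simulated data in which every gene had the same extra spread between libraries. That run does not show how the fit behaves on the real spread, which differs between genes. p-values are two-sided and adjusted by Benjamini-Hochberg over all tested genes. Members, lists and tests were chosen with earlier results of these data known. Genes named were the 10 highest, the 2 on each side of the limit, and the most extreme per direction and contrast among those without overlap; the rule allowed 5 per direction (3 without a test), and 2 are printed because identifiers have no names. Planned gene classes and marker lists needed names and were not used. Alternatives were pseudocount, filters, scalings, trend, groups in the fit, replicate block, reads in voom, threshold, list size and left-out libraries.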

Additional observations from a re-analysis of the deposited data

Results flagged for a closer look

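Among the genes named in the text, 6 results were marked because all libraries of a group moved one way under a contrast while all libraries of the matching group moved the other way. By the same criterion, 41 and 10 of the 200 members had opposite PEG effects, and 53 and 11 had opposite genotype effects. For PEG these were 20.5% and 5% of the members, beside 6.33% and 7.71% of tested genes. For genotype they were 26.5% and 5.5%, beside 5.38% and 9.13%. The WT control libraries enter these counts, so nothing is read from their distance to the tested genes. In each of the 6 results, the difference between the effects was not tested, since the WT control libraries that chose the genes enter it. Values are differences of log2 fold changes of FPKM + 1. Taken as OE less WT, the PEG effects differed by 1.65 for Potri.019G059500, 0.64 for Potri.005G002250 and -0.99 for Potri.014G151101. Potri.019G059500 had 745 ± 116 FPKM in OE PEG and 326 ± 133 in OE control, against 604 ± 49.5 in WT PEG and 786 ± 74.9 in WT control. Potri.005G002250 had 1121 ± 15.4 FPKM in OE PEG and 834 ± 73.6 in OE control, against 1255 ± 45.4 in WT PEG and 1453 ± 25.8 in WT control. Potri.014G151101 had 251 ± 6.94 FPKM in OE PEG and 366 ± 23.5 in OE control, against 1540 ± 122 in WT PEG and 1130 ± 52.4 in WT control.

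The genotype effect under PEG minus that without PEG was 2.48 for Potri.004G040600, -0.69 for Potri.014G149900 and 0.43 for Potri.018G057600. Potri.004G040600 had 252 ± 9.37 FPKM in OE PEG and 51.2 ± 2.51 in WT PEG, and 333 ± 8.11 in OE control and 383 ± 14.5 in WT control. Potri.014G149900 had 2015 ± 112 FPKM in OE PEG and 2292 ± 34.9 in WT PEG, and 1219 ± 50.4 in OE control and 857 ± 3.24 in WT control. Potri.018G057600 had 313 ± 2.65 FPKM in OE PEG and 272 ± 4.43 in WT PEG, and 321 ± 11.5 in OE control and 375 ± 12.02 in WT control.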

How the results depend on the processing

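Counts of members called stayed between 120 and 154 of the main 146 in OE PEG against OE control, and between 147 and 173 of the main 166 in OE PEG against WT PEG, over all alternatives run. Members called higher in OE PEG against OE control numbered 36 when libraries had an equal FPKM sum and 28 under quantile normalization, against 66, and those 2-fold lower numbered 12 with quantile normalization, against 7. With a library left out, members raised 2-fold there numbered 1 to 2. Members called higher in OE PEG against WT PEG numbered 57 with quantile normalization, against 86. Of all tested genes called in that comparison, 44.6% were higher with quantile normalization, against 52.9% in the main fit. Quantile normalization gave 3 members 2-fold higher in OE control than in WT control, against 0. Ranking by recovered reads kept 109 of the 200 members. The members' mean summed FPKM became 107763 in OE PEG and 125505 in WT PEG at an equal FPKM sum, and 108329 in OE PEG, 125100 in OE control and 120065 in WT PEG with quantile normalization. Over all genes, those 2-fold lower in OE PEG against OE control were 861 at pseudocount 0.1 and 911 by voom, the main count being 533, and those 2-fold higher 1060 at a mean FPKM of at least 5, against 1690. In OE PEG against WT PEG those 2-fold lower were 1152 at pseudocount 0.1 and 1214 by voom, the main count being 762. The filter leaves fewer genes in the test, and the causes of these changes were not tested. Of 536 alternative values for named genes, 502 kept direction and call or, where untested, moved by less than 1 SD; 14 lost a call, 5 gained one, and 11 untested values moved further in an unchanged direction. The sign turned for 4 in OE PEG against OE control: Potri.001G181800 (-0.21), Potri.002G070101 (-0.087) and Potri.006G188500 (-0.10) with quantile normalization, and Potri.002G207093 (-0.11) at an equal FPKM sum. These 4 are counted apart from the 14 and the 5. Potri.001G181800, Potri.002G070101 and Potri.006G188500 also lost their call there, and Potri.002G207093 gained one (adjusted p = 0.0089 by limma). Same-numbered libraries correlated at -0.071 to 0.1 in their deviations from group means, and differently numbered ones at -0.119 to 0.084. The main fit did not treat the numbers as pairs, and whether same-numbered libraries share a culture or batch was not tested. With a replicate block 144 members were called in OE PEG against OE control and 164 in OE PEG against WT PEG.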
